A study of Mus musculus with 17 samples.

Results

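The common myeloid progenitors (CMP) and the granulocyte-monocyte progenitors (GMP) of mouse bone marrow were compared at the mRNA level, on 3 CMP arrays and 3 GMP arrays out of 17 arrays in the series. The arrays were chosen by the cell type given in their labels, and all 41174 non-control probes, which carry 27975 gene names, were read. Both populations came from female C57Bl/6 mice 6 to 8 weeks old, untreated, and each replicate was a pool of 10 to 20 animals. Marrow was first depleted of cells with B220, CD3, GR-1 or Ter119 and enriched for c-kit, so that both populations are lineage-negative and c-kit positive. Within the Sca-1 negative fraction, CMP had intermediate CD34 and intermediate Fc gamma receptor on the surface, and GMP were CD34 positive and Fc gamma receptor positive. Each population is thus a gate on surface protein and may hold cells of several kinds. Each of 3 slides held 1 array of each population, and arrays are named below by their slide. The arrays of slides 1 and 2 carry the replicate numbers 1 and 2 in the labels, and those of slide 3 carry none. Slides 1 and 2 were scanned in the same month with 1 version of the scanner software, and slide 3 was scanned later with another version.

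A CMP is defined in culture and transplantation by its ability to give rise both to GMP and to megakaryocyte-erythroid progenitors (MEP), while a GMP gives rise to granulocytes and monocytes. Granulocyte precursors first fill primary (azurophil) granules with myeloperoxidase and serine proteases, and at later stages make secondary granules with lactoferrin and other antimicrobial proteins. The factors GATA-1, KLF1 and TAL1 drive erythroid and megakaryocyte genes, and factors of the C/EBP family together with PU.1 and GFI1 drive granulocyte and monocyte genes. Multipotent progenitors (MPP) lie upstream of CMP. The levels of MPP and MEP are given beside some genes, as mean ± SD of 3 arrays of each, with no test. Most of the MPP arrays were on slides and in a scanning run other than those of CMP and GMP.

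The labels were first set against defining transcripts. Values are log2 of the background-subtracted spot intensity, quantile normalized over the 17 arrays, and the values of the 3 arrays of a population are listed in the order of slides 1, 2 and 3. A difference is always GMP minus CMP on the log2 scale, with its standard error (SE), from limma over all 17 arrays with 1 mean per population. A probe was called where its p-value, adjusted by Benjamini-Hochberg over all 41174 probes, was under 0.05. Fcgr3, which encodes an Fc gamma receptor of the gate, was at 9.25, 10.48 and 9.60 in CMP and at 13.60, 13.79 and 13.43 in GMP, a log2 difference of 3.83 (SE 0.74, adjusted p = 0.00821). Fcgr2b, another Fc gamma receptor, had a log2 difference of 1.80 (SE 0.41, adjusted p = 0.0208). Both go in the direction of the gate by which the cells were sorted. Cd34 was not called, with a difference of -0.97 (SE 0.45, adjusted p = 0.409), although the gates differ in CD34 protein. Kit was not called either, with a difference of -0.20 (SE 0.24, adjusted p = 0.988). Ly6a, which encodes Sca-1, was at 6.38, 7.31 and 7.78 in CMP and 8.95, 9.92 and 10.25 in GMP, a log2 difference of 2.55 (adjusted p = 0.011), although both gates were Sca-1 negative. The count of sort markers called higher in GMP was 1 without GMP array 3 or CMP array 1. The count of sort markers called lower in GMP was 0 with slide as a block over the 6 arrays. Flt3, a cytokine receptor of early multipotent and lymphoid-primed cells, was 10.1-fold lower in GMP, at 6.03, 6.46 and 5.66 against 10.27, 9.71 and 8.16. The summed linear signal of the 7 GMP markers measured ran from 283166 to 583789 on the CMP arrays and from 675394 to 1018689 on the GMP arrays. That of the 4 CMP markers, Flt3 and Cd34 among them, ran from 35033 to 75886 on the CMP arrays and from 20636 to 26749 on the GMP arrays, and was higher on the MPP arrays, at 96400 to 127666.

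Of the GMP markers, Mpo (myeloperoxidase) was near the top of the range of the array in both populations, at 17.66, 18.37 and 18.78 in CMP and 18.66, 18.89 and 18.89 in GMP, and was not called. Elane and Ms4a3 were called higher in GMP and are described below. Irf8, a monocyte and dendritic cell factor, was at 14.95 ± 0.088 in CMP and 14.37 ± 0.27 in GMP (SD, n = 3 arrays each), a difference that was not called (adjusted p = 0.81). Of the 5 markers of MEP, Gata1, Klf1, Epor, Car1 and Car2, each was well above background on every CMP and GMP array. The summed linear signal of these 5 ran from 7018 to 22670 on the CMP arrays and from 1180 to 1374 on the GMP arrays, against 90044 to 115558 on the MEP arrays. In sorted bulk samples like these, fewer cells of a kind and less of a transcript per cell cannot be told apart.

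Between the populations, 575 gene names were called higher in GMP, which is 2.06% of all gene names, and 960 were called higher in CMP, which is 3.43%. At the level of probes, 757 (1.84%) were higher in GMP and 1205 (2.93%) higher in CMP. For a gene name with several probes, the probe with the brightest mean over the 17 arrays stands for it. Of the called genes, 187 were at least 4-fold higher in GMP and 357 at least 4-fold higher in CMP. In all 1535 called genes the 3 arrays of one population lay entirely above the 3 of the other, which was the case for 21.1% of all gene names. A further limit is detection, because 192 of the genes called higher in CMP were well above background on no GMP array and 57 of those called higher in GMP on no CMP array. With slide as a block in the fit, 3220 gene names were called, 1379 higher in GMP and 1841 higher in CMP, and these held 1521 of the 1535. With only the 6 CMP and GMP arrays in the fit, 1058 of the 1535 were called, and 832 with slide as a block over these 6 arrays. Without CMP array 1 the number of called genes was 914. The share of called probes that were higher in GMP was 38.6%, and 49.7% with normexp background correction and an offset of 50. With that correction 793 genes were called higher in GMP and 888 higher in CMP, so the excess of genes higher in CMP was smaller. The share of probes also moved with no change of background treatment, to 44.9% with slide as a block and 31.2% without CMP array 1. The median difference over all gene names was 0.038, and 0.15 when the arrays were scaled to their 75th percentile instead.

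**Figure D1:**
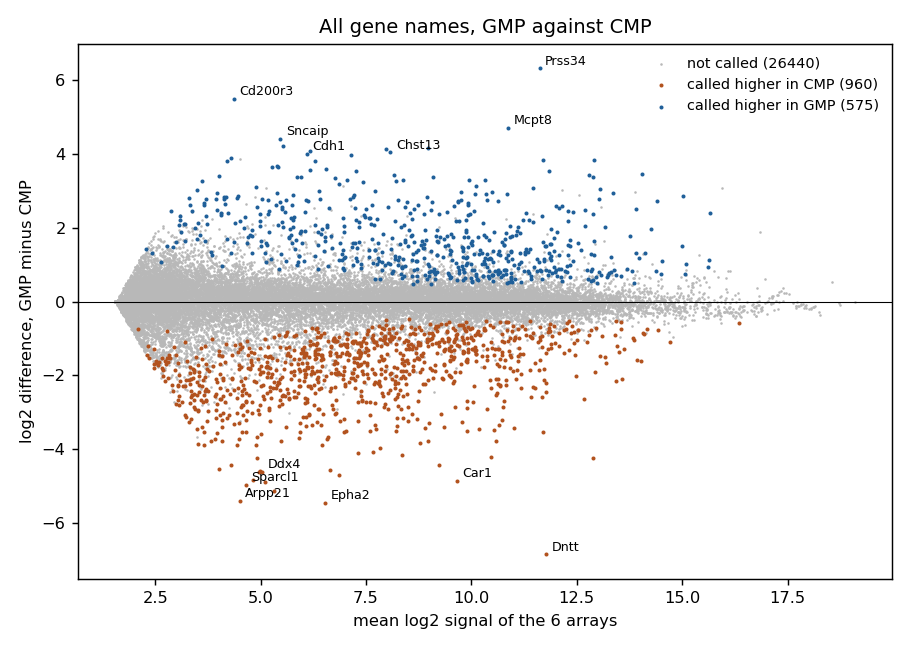
Each point is 1 gene name, with the mean log2 signal of the 6 CMP and GMP arrays on the horizontal axis and the log2 difference, GMP minus CMP, on the vertical axis. The 575 genes called higher in GMP are blue, the 960 called higher in CMP are orange and the 26440 not called are grey. Some of the genes with the largest differences are named, with Prss34 at the top and Dntt at the bottom.

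Of 28 gene lists, those of mast cell, basophil and eosinophil genes and of primary granules had the highest medians, and those of erythroid, dendritic cell and megakaryocyte genes the lowest. The members of a list are counted by whether they were called, and the counts are to be read against the 2.06% and 3.43% of all gene names that were called each way. A list's median is that of the log2 differences of all its members on the array. Some genes belong to several lists, so the counts of different lists are not independent. With normexp background correction the medians were 1.27 for mast cell, basophil and eosinophil genes, below the 1.38 for primary granule genes, and -1.35 for erythroid, -1.002 for dendritic cell and -0.96 for megakaryocyte genes.

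**Figure D2:**
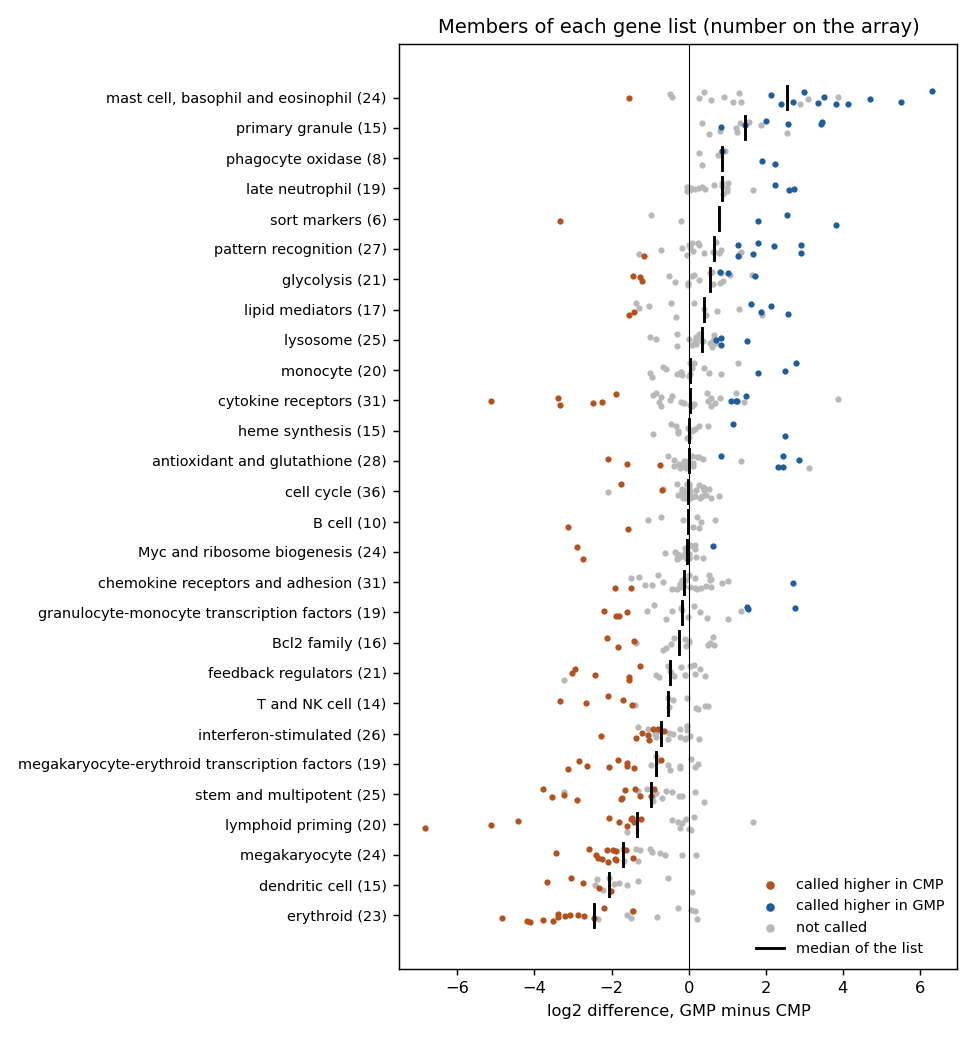
Each row is a gene list with its number of members on the array, each point is the log2 difference, GMP minus CMP, of 1 member and the black bar is the median of the list. Blue members were called higher in GMP, orange members were called higher in CMP and grey members were not called. The median ran from -2.47 for erythroid genes to 2.55 for mast cell, basophil and eosinophil genes.

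Genes of basophils and mast cells were among those with the largest differences towards GMP, Prss34 and Mcpt8 among them. Prss34, a serine protease made by basophils and mast cells, was at 7.95, 9.52 and 7.91 in CMP and at 14.38, 14.96 and 14.98 in GMP. Its difference was 6.31 (SE 0.81, adjusted p = 0.000507), which is 79.5-fold, and it was at 10.17 ± 1.06 in MPP and 7.95 ± 1.595 in MEP. The probe lies at chr17:25436942-25437001 of mm9. Mcpt8, a protease that marks basophils, rose from 8.08, 8.88 and 8.63 to 12.79, 13.35 and 13.54, 26-fold higher in GMP. Cd200r3, a receptor of basophils and mast cells, was well above background on no CMP array and on all 3 GMP arrays, at 6.14, 7.56 and 7.61, and was at least 9.33-fold higher in GMP (adjusted p = 4.15e-06). A fold written with "at least" sets the brighter population against the dimmest signal that counted as well above background on each array, or the probe's own signal where that was higher. Fcer1a, the alpha chain of the high affinity IgE receptor, was at 5.26, 7.04 and 5.41 in CMP and 9.28, 11.01 and 9.81 in GMP, with the slide 2 array the highest of its population in both. Ms4a2, the beta chain of that receptor, was at 4.88 ± 0.83 in CMP and 7.88 ± 0.49 in GMP (SD, n = 3). Cpa3, a carboxypeptidase of mast cells and basophils, was 5.23-fold higher in GMP (adjusted p = 0.000943). All 4 markers of mast cells and basophils were called, and the sum of their linear signal ran from 1121 to 1928 on the CMP arrays and from 12748 to 19295 on the GMP arrays. The list as a whole had 11 of 24 members called higher in GMP and 1 called lower, with a median of 2.55. Ltc4s (leukotriene C4 synthase) was the member that was lower, at 7.13, 7.03 and 7.12 in CMP and 5.78, 5.67 and 5.21 in GMP.

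Of the eosinophil granule genes in the same list, Epx and Prg3 were called higher in GMP and Prg2 and Ear1 were not, with differences of 3.82, 3.52, 3.08 and 2.88. These 4 genes were picked after their values were seen. Epx (eosinophil peroxidase) was at 11.36, 11.79 and 9.87 in CMP and 15.25, 13.95 and 15.27 in GMP, and its adjusted p of 0.0483 was close to the threshold. The slide 2 GMP array was the lowest of the 3. Il5ra, the receptor for the eosinophil cytokine interleukin 5, was well above background on no CMP array and on all 3 GMP arrays, at 6.55, 5.74 and 7.03. It was at least 5.9-fold higher in GMP in the sense given above, a bound and not a fold between measured means. It was not called, with an adjusted p of 0.0844, which was 0.0407 with slide as a block.

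Several genes of the primary granule were higher in GMP, among them Elane and Ms4a3, and no member was lower. Of 15 members, 6 were called higher in GMP and none lower, all 15 differences were above 0 and the median was 1.47. Elane, which encodes neutrophil elastase, was at 10.14, 11.27 and 11.83 in CMP and 14.18, 14.21 and 15.11 in GMP, a log2 difference of 3.42 (SE 0.90, adjusted p = 0.0463). Within the slides its difference was 4.04, 2.94 and 3.28. Ms4a3, a membrane protein of granulocyte-monocyte progenitors, was at 11.60, 12.62 and 12.76 in CMP and 15.47, 15.51 and 16.35 in GMP, 10.9-fold higher. For both genes the slide 1 CMP array was the lowest and the slide 3 GMP array the highest. Prss57, a serine protease of neutrophil granules, had a difference of 2.58 (adjusted p = 0.00539) and Cd63, a membrane protein of these granules, one of 2.01 (adjusted p = 0.0123). Prtn3 (proteinase 3) and Ctsg (cathepsin G) were not called, although their arrays did not overlap, at 11.31, 12.16 and 11.91 against 14.25, 14.41 and 14.37 for Prtn3 and 15.24, 16.09 and 16.41 against 17.14, 17.78 and 18.48 for Ctsg. Their adjusted p of 0.0558 and 0.203 became 0.00496 and 0.0329 with slide as a block. The count of primary granule genes called higher in GMP was 10 under scaling to the 75th percentile or with slide as a block, 3 without CMP array 2 and 2 without GMP array 3 or CMP array 1.

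Some genes of later neutrophil stages were called, but the differences of the list varied between slides. Of 19 members, 3 were called higher in GMP, which is 15.8% against 2.06% of all gene names. Hp (haptoglobin) was at 12.66, 13.37 and 13.07 in CMP and 15.53, 15.64 and 16.13 in GMP, Pglyrp1, an antibacterial protein of neutrophil granules, had a difference of 2.60 (adjusted p = 0.0225), and Cybb, the catalytic subunit of the phagocyte oxidase, one of 2.24 (adjusted p = 0.0217). Ltf (lactoferrin) and Camp (cathelicidin) were not called. Ltf was at 10.94, 10.89 and 9.07 in CMP and 10.32, 9.47 and 11.22 in GMP, and Camp at 12.31, 12.09 and 10.78 and 11.31, 10.50 and 13.26. S100a9, an abundant calcium-binding protein of neutrophils, was at 16.41, 16.20 and 14.97 in CMP and 15.85, 15.19 and 17.54 in GMP, lower in GMP on slides 1 and 2 and higher on slide 3. The median of the list was 0.85, and 0.44 without CMP array 3, 0.53 without GMP array 3 and 0.43 with normexp. It was 0.46 within slide 1, -0.066 within slide 2 and 2.31 within slide 3. All 8 mature neutrophil markers measured were well above background on every CMP and GMP array, and the sum of their signal ran from 38578 to 105046 in CMP and from 48179 to 229697 in GMP, with slide 3 lowest in CMP and highest in GMP. The sum was at similar levels in the other populations read, at 75336 to 290232 in MPP and 86922 to 174230 in MEP. The part of mature neutrophil RNA in the results on granule genes was not tested. The count of late neutrophil genes called higher in GMP was 1 without GMP array 2 and 0 without GMP array 3, CMP array 3, GMP array 1, CMP array 1 or CMP array 2.

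The phagocyte oxidase, which makes superoxide in granulocytes and macrophages, had 8 members on the array, all with differences above 0. Of these, 3 were called higher in GMP, Cybb and Hvcn1 among them. Hvcn1, a proton channel that works with the oxidase, was at 10.03, 10.42 and 9.93 in CMP and 12.08, 12.13 and 11.90 in GMP. The median of the 8 was 0.85. The count of phagocyte oxidase genes called higher in GMP was 1 under scaling to the 75th percentile or without CMP array 3 and 0 without GMP array 3, GMP array 1, CMP array 1, GMP array 2 or CMP array 2.

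Some monocyte genes were called higher in GMP, 15% of the list against 2.06% of all gene names. Of 20 members, 3 were called higher in GMP and none lower, and the median was 0.038, the same as for all gene names. Ly6c1, a surface antigen of monocytes and other cells, was at 10.89, 12.16 and 11.85 in CMP and 14.17, 14.55 and 14.54 in GMP, Adgre1, which encodes F4/80, at 6.82, 7.56 and 7.80 and 9.80, 9.68 and 10.23, and Cd14, the lipopolysaccharide co-receptor, at 7.503, 7.69 and 7.89 and 9.01, 9.63 and 9.83. Csf1r, the receptor for macrophage colony-stimulating factor, was at 11.62 ± 0.61 in CMP and 11.70 ± 0.72 in GMP (SD, n = 3), a difference smaller than the SD of either population. The count of monocyte genes called higher in GMP was 1 without GMP array 3, CMP array 1 or GMP array 2. The count of monocyte genes called lower in GMP was 1 with quantile normalization over the 6 arrays alone or with slide as a block or with only the 6 arrays in the fit or without LT-HSC.

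Receptors that sense microbes were more often higher than lower in GMP. Of 27 members, 7 were called higher and 1 lower, with a median of 0.66, which was 0.36 with normexp and 0.40 with the authors' table. Clec5a, a C-type lectin receptor of myeloid cells, was at 7.83, 8.74 and 9.36 in CMP and 11.24, 11.23 and 12.17 in GMP. Clec4a2, a receptor of the same family, was at 9.36, 9.71 and 9.07 in CMP and 12.11, 12.13 and 12.61 in GMP, and the fold was the same for both, at 7.49-fold and 7.49-fold. Tlr4, the receptor for lipopolysaccharide, had a difference of 2.21 (adjusted p = 0.0375) and was well above background on 2 of 3 CMP arrays. Clec4d, another lectin receptor, was the member that was lower, with a difference of -1.17 (adjusted p = 0.00243). The count of pattern recognition genes called higher in GMP was 4 without GMP array 3, CMP array 1, GMP array 2 or CMP array 2. The count of pattern recognition genes called lower in GMP was 2 with quantile normalization over the 6 arrays alone or with slide as a block.

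Enzymes and receptors of lipid mediators were called in both directions, 4 higher and 2 lower in GMP of 17. Alox5, which starts leukotriene synthesis, was at 9.07, 9.15 and 9.39 in CMP and 10.98, 11.32 and 11.69 in GMP. Lta4h, which makes leukotriene B4, was 3.04-fold higher in GMP, and Ltb4r1, the receptor for leukotriene B4, was 5.98-fold higher, at 10.68, 11.01 and 10.44 against 13.57, 13.18 and 13.12. The prostacyclin receptor Ptgir had a difference of 1.87 (adjusted p = 0.014). Ltc4s, on the branch to leukotriene C4, was lower as given above, and Ptger4, a receptor for prostaglandin E2, had a difference of -1.42 (adjusted p = 0.00415). The count of lipid mediator genes called higher in GMP was 2 without CMP array 1.

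A few lysosomal genes were higher in GMP. Of 25 members, 4 were called higher and none lower, 21 had differences above 0 and the median was 0.35. Gla (alpha-galactosidase) was at 8.08, 8.15 and 7.89 in CMP and 9.61, 9.71 and 9.37 in GMP, while Gusb (beta-glucuronidase), Lipa (lysosomal acid lipase) and Lamp1, a lysosomal membrane protein, had differences of 0.85, 0.83 and 0.71. The count of lysosome genes called higher in GMP was 10 with slide as a block or with scanning run as a block, 8 with a random block for slide and 2 without GMP array 3 or CMP array 1. The count of lysosome genes called lower in GMP was 1 with quantile normalization over the 6 arrays alone or with only the 6 arrays in the fit.

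Genes of glutathione and antioxidant metabolism were split, with 5 called higher in GMP, 3 lower and a median of -0.004 over 28. Gstm1, a glutathione transferase, was at 13.02, 13.84 and 13.95 in CMP and 16.08, 16.15 and 17.13 in GMP, a log2 difference of 2.85 (SE 0.47, adjusted p = 0.00295). The membrane-bound transferases Mgst1 and Mgst2 were 5.48-fold and 5.4-fold higher in GMP, and glutathione reductase (Gsr) was 5.02-fold higher. Nqo1, a quinone reductase, was at 7.62, 7.47 and 7.09 in CMP and 5.40, 5.18 and 5.33 in GMP, and Gstm5 and the peroxiredoxin Prdx2, which is abundant in red cells, were also lower, with differences of -1.59 and -0.73. The count of antioxidant genes called higher in GMP was 8 with slide as a block. The count of antioxidant genes called lower in GMP was 1 with slide as a block over the 6 arrays.

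In glycolysis, 3 members were called higher in GMP and 3 lower of 21. Those higher were Ldhb (a lactate dehydrogenase subunit), at 11.16, 11.15 and 11.004 in CMP and 12.73, 12.99 and 12.73 in GMP, Pgam1 (phosphoglycerate mutase), with a difference of 1.01, and Hk2 (a hexokinase), with 0.82. Those lower were the aldolase Aldoc, the phosphofructokinase Pfkm and the glucose transporter Slc2a3, with differences of -1.45, -1.28 and -1.22. The count of glycolysis genes called higher in GMP was 11 with slide as a block, 8 with scanning run as a block, 6 with normexp or with the authors' table or with a random block for slide and 5 with quantile normalization over the 6 arrays alone or with slide as a block over the 6 arrays or with only the 6 arrays in the fit. The count of glycolysis genes called lower in GMP was 1 without GMP array 3, CMP array 1 or CMP array 2 and 0 with quantile normalization over the 6 arrays alone or with only the 6 arrays in the fit.

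Among transcription factors of the granulocyte-monocyte lineage, 3 of 19 were called higher in GMP and 4 lower. Gfi1, a repressor needed for granulocyte differentiation, was at 8.53, 9.02 and 9.42 in CMP and 11.78, 11.48 and 11.95 in GMP, a log2 difference of 2.75 (SE 0.42, adjusted p = 0.00162). Cebpb and Cebpd, both of the C/EBP family, had differences of 1.51 and 1.54 (adjusted p = 0.0162 and 0.0247). Cebpa, which is required for the formation of GMP, was at 10.06, 10.70 and 9.90 in CMP and 11.64, 11.89 and 11.23 in GMP. Its arrays did not overlap, but it was not called (adjusted p = 0.134), and with slide as a block its adjusted p was 0.0118. Spi1, which encodes PU.1, was at 7.02, 7.38 and 7.22 in CMP and 7.44, 7.94 and 7.67 in GMP and was not called (adjusted p = 0.987). The members that were lower in GMP were Egr1 and Egr2, zinc finger factors induced by growth signals, Junb, of the AP-1 family, and Id2, an inhibitor of helix-loop-helix factors. Egr1 was at 12.73, 12.95 and 12.91 in CMP and 10.95, 10.15 and 10.90 in GMP, and at 14.18 ± 0.46 in MPP. Egr2, Id2 and Junb had differences of -1.81, -1.88 and -1.602, with adjusted p of at most 0.0104. The remaining 12 members were not called, with differences from -1.09 for Nab2 to 1.37 for Cebpa. Of these, Jun, Rxra and Per3 also passed with slide as a block, at adjusted p of 0.0345, 0.0379 and 0.0253. The count of granulocyte-monocyte transcription factors called higher in GMP was 5 with slide as a block or with slide as a block over the 6 arrays and 1 without GMP array 3, CMP array 1 or CMP array 2.

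Many transcription factors of the megakaryocyte and erythroid lineages were lower in GMP, among them Klf1, Gata1 and Gfi1b. Of 19 members, 9 were called lower and none higher, with a median of -0.84. Klf1, an activator of globin and other erythroid genes, was at 10.14, 9.80 and 9.46 in CMP and 6.26, 6.56 and 7.17 in GMP, a log2 difference of -3.14 (SE 0.54, adjusted p = 0.0039), and at 12.91 ± 0.11 in MEP. Gata1, the central factor of both lineages, was at 10.44, 10.50 and 9.44 in CMP and 7.98, 8.11 and 8.08 in GMP, with a difference of -2.07 (adjusted p = 0.00758). Gfi1b, a repressor related to Gfi1 that acts in erythroid and megakaryocytic cells, was at 12.09, 12.12 and 12.29 in CMP and 9.27, 9.02 and 9.64 in GMP, 7.23-fold lower, so that the related pair Gfi1 and Gfi1b differed in opposite directions. Zfpm1, which encodes the GATA cofactor FOG-1, was 6.2-fold lower in GMP and Tal1, a partner of GATA-1, was 3.04-fold lower. Gata2, the GATA factor of stem cells, early progenitors and mast cells, differed least of those called, at 12.04, 12.33 and 12.25 in CMP and 11.52, 11.48 and 11.48 in GMP (difference -0.72, adjusted p = 0.0159). Bcl11a and Mef2c, which also belong to the lymphoid priming list, were called too, with differences of -1.43 and -1.59. Ldb1, Cbfa2t3, Lmo2 and Tcf3, partners in complexes with TAL1, had adjusted p of 0.123, 0.153, 0.146 and 0.0569, and 0.0209, 0.0235, 0.0383 and 0.0134 with slide as a block. Nfe2, Fli1 and Lyl1 had differences of 0.053, 0.15 and 0.24 and were not called. The count of megakaryocyte-erythroid factors called lower in GMP was 13 with slide as a block and 6 with slide as a block over the 6 arrays.

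**Figure D3:**
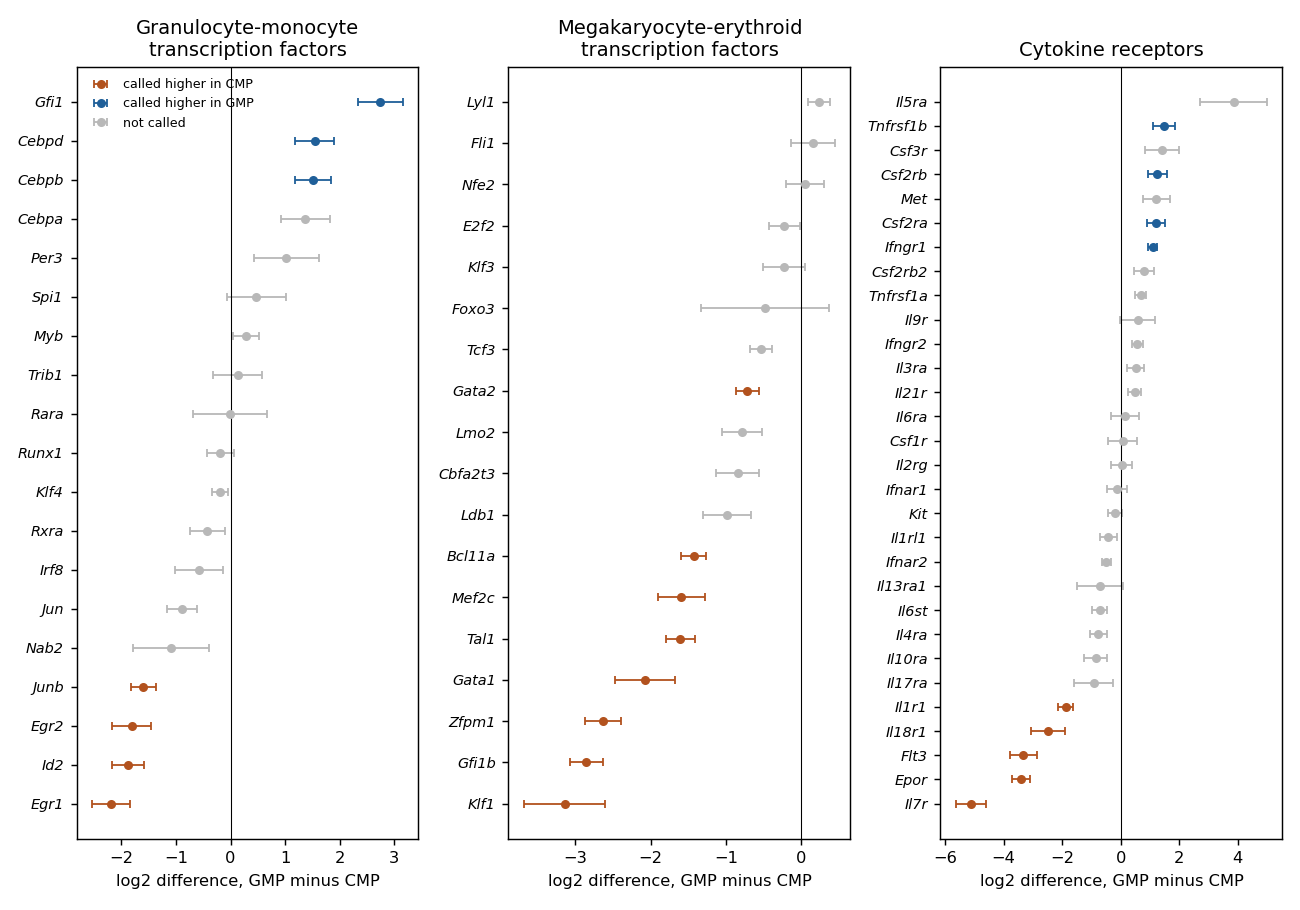
Points are the log2 difference, GMP minus CMP, and bars its standard error, for members of the 2 lists of transcription factors and of the list of cytokine receptors, 1 called member of each of the last 2 panels being left out. Il5ra was well above background on no CMP array and Il7r on no GMP array, so their points are set against values near the background. Blue points were called higher in GMP, orange points were called higher in CMP and grey points were not called. The panel of megakaryocyte-erythroid factors has 8 orange points and no blue one.

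Erythroid genes had a median of -2.47, the lowest of all lists, with 14 of 23 members called lower in GMP and none higher. Without CMP array 1 the median was -2.08, against -2.09 for dendritic cell genes, which was then the lowest. Car1 (carbonic anhydrase 1), whose probe lies at chr3:14767486-14767545 of mm9, was at 12.99, 12.59 and 10.69 in CMP and 7.12, 6.92 and 7.66 in GMP, a log2 difference of -4.85 (SE 0.51, adjusted p = 0.000111). It was at 7.496 ± 0.50 in MPP and 14.80 ± 0.40 in MEP. The slide 3 CMP array was the lowest of the 3 and still above every GMP array. Aqp1, a water channel of red cells, was at 13.32, 12.98 and 11.38 in CMP and 8.74, 7.995 and 8.33 in GMP, Ermap, a red cell membrane protein, had a difference of -4.11, with 2 of 3 GMP arrays well above background, and Sphk1 (sphingosine kinase 1) had one of -3.78. Epor, the erythropoietin receptor, was at 11.56, 11.08 and 10.49 in CMP and 7.73, 7.46 and 7.75 in GMP, 10.5-fold lower, against 14.03 ± 0.10 in MEP. The within-slide median of the list was -3.46, -2.72 and -1.19 on slides 1, 2 and 3, and the sum of the 5 MEP markers was lowest on the CMP array of slide 3. Hba-a1 (alpha globin) and Alas2, of heme synthesis in red cells, were not called. Hba-a1 was at 10.17, 8.47 and 10.25 in CMP and 8.26, 7.01 and 9.15 in GMP, and Alas2 at 6.23, 4.85 and 5.92 and 6.75, 4.13 and 5.27. The sum of the 4 mature erythroid markers measured ran from 437 to 1422 in CMP and from 173 to 693 in GMP, with slide 2 lowest in both. Between 3 and 4 of these 4 were well above background on a CMP array, and between 1 and 3 on a GMP array. The part of MEP or mature erythroid RNA in these differences was not tested. The count of erythroid genes called lower in GMP was 9 without GMP array 1, CMP array 1 or GMP array 2, 8 with quantile normalization over the 6 arrays alone or with only the 6 arrays in the fit and 7 with slide as a block over the 6 arrays.

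The promoters of genes on the array were searched for the letters that GATA factors bind. In the 250 bases before the listed start of each gene (RefSeq, GRCm38.p6, the first start listed), AGATAA or TGATAA on either strand was found in 12 of 29 genes with a listed promoter that were called higher in CMP and belong to the erythroid, megakaryocyte or megakaryocyte-erythroid factor lists, which is 41.4%. The share was 13.2% of all 15583 genes of the array with a listed promoter and 12.2% of the 656 such genes called higher in CMP. The lists and motifs were chosen with earlier results of these data known. Members of the lists that were not called were not counted separately, so the 41.4% cannot be tied to the difference between CMP and GMP. Both strings share the letters GATAA. The 3 of the 12 with the largest differences are shown, 5′ to 3′ on the strand of the gene and ending at the base before the start, with the match in capitals. TTATCT and TTATCA are the same strings read on the other strand.
Ermap (chr4:119189996-119190245, minus strand): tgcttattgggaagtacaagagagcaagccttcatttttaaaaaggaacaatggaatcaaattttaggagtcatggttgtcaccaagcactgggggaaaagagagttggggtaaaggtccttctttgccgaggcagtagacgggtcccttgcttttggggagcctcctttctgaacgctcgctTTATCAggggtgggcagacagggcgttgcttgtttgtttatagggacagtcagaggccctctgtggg
Rhd (chr4:134864286-134864535, plus strand): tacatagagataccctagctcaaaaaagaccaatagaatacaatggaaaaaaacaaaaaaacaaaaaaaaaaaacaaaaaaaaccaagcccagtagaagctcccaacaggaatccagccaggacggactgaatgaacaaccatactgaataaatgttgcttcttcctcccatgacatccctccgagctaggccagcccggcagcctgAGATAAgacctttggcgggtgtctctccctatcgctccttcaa
Epor (chr9:21963577-21963826, minus strand): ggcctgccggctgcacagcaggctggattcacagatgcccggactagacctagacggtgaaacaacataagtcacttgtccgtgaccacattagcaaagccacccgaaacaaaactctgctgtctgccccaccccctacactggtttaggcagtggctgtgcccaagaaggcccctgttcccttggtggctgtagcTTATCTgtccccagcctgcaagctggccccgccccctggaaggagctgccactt
The matches begin 67, 43 and 54 bases before the start of Ermap, Rhd and Epor. Rhd, a red cell membrane protein of the Rh family, was at 10.21, 8.76 and 9.07 in CMP and 4.99, 4.95 and 7.55 in GMP. A match is a string of letters and not a measured binding site.

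Megakaryocyte and platelet genes were lower in GMP in 13 of 24 members and higher in none, with a median of -1.70. F2r, the main thrombin receptor, was at 11.80, 11.74 and 12.13 in CMP and 8.91, 8.08 and 8.36 in GMP, a log2 difference of -3.44 (SE 0.41, adjusted p = 0.000282). Slc14a1, a urea transporter, was 6.01-fold lower, Gp5, a subunit of the receptor for von Willebrand factor, was at 9.32, 9.65 and 9.54 in CMP and 7.27, 6.85 and 7.21 in GMP, and Treml1, a receptor of platelet granules, was at 11.39, 11.21 and 12.35 and 9.63, 8.63 and 9.64. Pf4 (platelet factor 4) was at 14.32, 13.99 and 15.55 in CMP and 12.83, 11.70 and 12.995 in GMP, and was lower in both neighbours of CMP in the hierarchy, at 9.84 ± 0.53 in MPP and 9.44 ± 0.45 in MEP. Treml1 was likewise at 6.78 ± 0.30 in MPP and 7.21 ± 0.55 in MEP. The 5 megakaryocyte markers, all well above background on every CMP and GMP array, had summed signals of 22231 to 53887 in CMP, 5323 to 10082 in GMP, 1125 to 2433 in MPP and 2104 to 2525 in MEP. The CMP array of slide 3, lowest in the 5 MEP markers, was the highest in megakaryocyte markers. The count of megakaryocyte genes called lower in GMP was 6 with only the 6 arrays in the fit and 5 with quantile normalization over the 6 arrays alone.

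**Figure D4:**
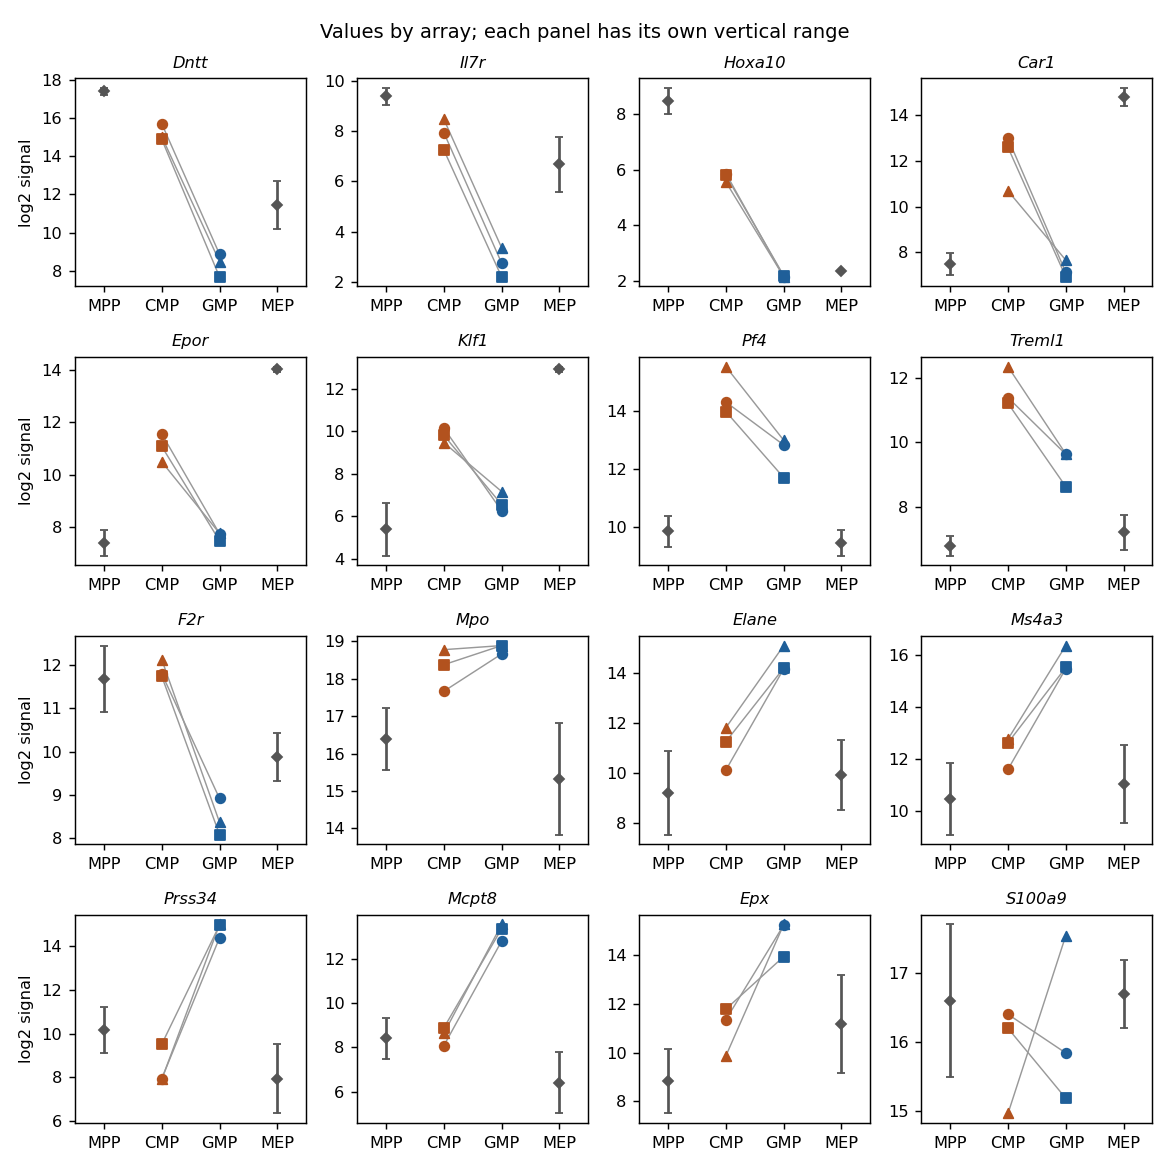
Log2 signal of 16 genes, with each CMP array (orange) joined by a line to the GMP array (blue) of the same slide, as a circle for slide 1, a square for slide 2 and a triangle for slide 3. Grey diamonds are the mean of the 3 MPP and the 3 MEP arrays with their SD, and each panel has its own vertical range. Car1 falls from CMP to GMP on every slide and is highest in MEP, Elane and Prss34 rise on every slide, and S100a9 falls on slides 1 and 2 and rises on slide 3.

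Several genes of stem and multipotent cells were lower in GMP, among them Slamf1 and Hoxa10. Of 25 members, 11 were called lower and none higher, with a median of -0.97. Slamf1, which encodes the stem cell antigen CD150, was well above background on all CMP arrays, at 5.37, 5.56 and 6.23, but on no GMP array, at least 2.79-fold lower there (adjusted p = 0.000221). Hoxa10, a homeobox factor of early progenitors, was at 5.86, 5.79 and 5.56 in CMP and well above background on no GMP array, at least 2.81-fold lower (adjusted p = 1.24e-05), and was at 8.46 ± 0.47 in MPP. Robo4, an adhesion receptor of stem cells, was at 9.08, 8.67 and 9.01 in CMP and 6.17, 5.95 and 4.93 in GMP, a log2 difference of -3.24 (SE 0.30, adjusted p = 3.88e-05). Mycn, a Myc factor of stem cells, had a difference of -2.90 (adjusted p = 0.0084). Of the 4 stem cell markers, between 2 and 3 were well above background on a GMP array and all 4 on each CMP array, and their summed signal ran from 750 to 1017 in CMP, 342 to 427 in GMP and 8741 to 12201 in MPP. The count of stem and multipotent genes called lower in GMP was 18 with slide as a block or with scanning run as a block and 17 with a random block for slide.

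The largest difference of all towards CMP was in a gene of lymphoid priming. Dntt, the terminal transferase that adds bases at the junctions of antigen receptor genes, was at 15.70, 14.88 and 15.02 in CMP and 8.88, 7.69 and 8.49 in GMP, a log2 difference of -6.85 (SE 0.52, adjusted p = 1.24e-05), which is 115-fold. It was at 17.39 ± 0.18 in MPP and 11.46 ± 1.27 in MEP, and its probe lies at chr19:41133936-41133995 of mm9. Il7r, the interleukin 7 receptor of lymphoid progenitors, was at 7.94, 7.25 and 8.47 in CMP and dimmer than the limit for well above background in all of GMP, at least 12.5-fold lower there (adjusted p = 6.89e-05). Blnk, an adaptor of the B cell receptor, was at 11.58, 11.09 and 11.68 in CMP and 6.75, 6.67 and 7.67 in GMP. Lax1, an adaptor of lymphocyte receptors, was at least 2.68-fold lower (adjusted p = 0.0333). In all, 10 of 20 members were called lower in GMP and none higher, with a median of -1.34, which was -0.42 with normexp and -0.58 with the authors' table. The count of lymphoid priming genes called lower in GMP was 6 with quantile normalization over the 6 arrays alone or with slide as a block over the 6 arrays or with only the 6 arrays in the fit. The count of lymphoid priming genes called higher in GMP was 1 with slide as a block over the 6 arrays.

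Markers of mature B and T cells were read beside these genes, since B220 and CD3 were used to deplete lymphocytes. Pax5 and Ms4a1 were well above background on no CMP or GMP array, and Cd3d and Cd3g likewise on none. Some members of both lists were called lower in GMP. In the B cell list they were Cd22, an inhibitory receptor, at 7.59, 7.80 and 7.51 in CMP and 4.80, 4.28 and 4.45 in GMP, and Ighm, the mu heavy chain, at 14.81, 14.62 and 14.70 and 13.14, 13.36 and 12.90, 2 of 10 members. In the list of T and NK cells they were 5 of 14, led by Klrd1, an NK cell receptor, at 8.05, 7.90 and 8.37 in CMP and 4.49, 5.03 and 4.81 in GMP, and by Lck, a T cell kinase, at 9.37, 8.70 and 8.11 and 6.13, 6.20 and 5.89. Klrb1c and Lat, an NK receptor and a T cell adaptor, were also called, the first at least 1.68-fold lower in GMP (adjusted p = 0.0406) and the second with a difference of -1.71. The 6 B cell markers, Ighm among them, had summed signals of 28265 to 31237 in CMP and 11568 to 14494 in GMP, and the 6 T cell markers 854 to 1528 and 310 to 514. On a CMP array, 3 of the B cell and 3 to 4 of the T cell markers were well above background, and on a GMP array 3 to 4 and 2 to 3. The count of T and NK cell genes called lower in GMP was 3 with quantile normalization over the 6 arrays alone.

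Of 15 genes of dendritic cells and of antigen presentation, 5 were called lower in GMP and none higher, with a median of -2.06. Ccr7, a chemokine receptor of migrating dendritic cells and lymphocytes, was at 6.73, 6.40 and 7.13 in CMP and dimmer than the background limit on all 3 GMP arrays, at least 5.71-fold lower (adjusted p = 0.0119). Batf3, a factor of conventional dendritic cells, was at 9.95, 10.26 and 10.14 in CMP and 7.23, 6.95 and 7.04 in GMP, Itgax, which encodes CD11c, at 9.07, 9.02 and 9.20 and 6.30, 6.11 and 6.64, and Cd74, the invariant chain of MHC class II, at 12.18, 12.35 and 12.48 and 10.16, 9.56 and 10.30. The class II gene H2-Ab1 was called (difference -2.02, adjusted p = 0.0423), while H2-Aa had a difference of -2.44 and an adjusted p of 0.0925. In MPP, Cd74 was at 14.21 ± 0.26 and H2-Ab1 at 15.06 ± 0.21, above all 3 CMP arrays. The count of dendritic cell genes called lower in GMP was 12 with slide as a block, 10 with quantile normalization over the 6 arrays alone or with only the 6 arrays in the fit or without LT-HSC, 8 with a random block for slide and 3 without GMP array 2.

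Interferon-stimulated genes were lower in GMP in 8 of 26 members and higher in none, with a median of -0.72, which was -0.46 with normexp, and 24 differences below 0. Ifi44 was at 6.96, 7.30 and 7.503 in CMP and 5.06, 5.32 and 4.56 in GMP. Mx2, an antiviral GTPase, was at 7.82, 7.88 and 8.34 in CMP and 6.43, 6.69 and 6.79 in GMP, and Rsad2, the antiviral enzyme viperin, at 6.97, 7.17 and 7.68 and 5.67, 6.01 and 6.48. Usp18, which removes the ubiquitin-like protein ISG15, had a difference of -1.05 (adjusted p = 0.0111). The count of interferon-stimulated genes called lower in GMP was 15 with slide as a block, 5 under scaling to the 75th percentile or without CMP array 3 or CMP array 1, 4 with quantile normalization over the 6 arrays alone or with slide as a block over the 6 arrays, 3 with only the 6 arrays in the fit and 2 without GMP array 1 or CMP array 2.

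Cytokine receptors were called in both directions, 4 higher and 6 lower in GMP of 31, around a median of 0.029. Both chains of the receptor for granulocyte-macrophage colony-stimulating factor were higher in GMP. Csf2ra, the alpha chain, was at 12.80, 12.98 and 12.33 in CMP and 13.96, 14.12 and 13.67 in GMP, and Csf2rb, the beta chain shared with the receptors for interleukins 3 and 5, at 11.48, 11.73 and 11.78 and 12.90, 12.88 and 12.98. Tnfrsf1b, a receptor for tumor necrosis factor, and Ifngr1, a chain of the receptor for interferon gamma, had differences of 1.49 and 1.10. Csf3r, the receptor for granulocyte colony-stimulating factor, was at 8.74, 9.03 and 8.32 in CMP and 10.45, 10.33 and 9.59 in GMP. Its arrays did not overlap, but it was not called (adjusted p = 0.291, and 0.057 with slide as a block). Besides Il7r, Epor and Flt3, the receptors that were lower in GMP included Il1r1, the receptor for interleukin 1, at 8.40, 8.04 and 8.60 in CMP and 6.96, 6.30 and 6.14 in GMP, and Il18r1, a chain of the interleukin 18 receptor, which had a difference of -2.47, with 2 of 3 GMP arrays well above background. The other 21 were not called. Apart from Il5ra, given above, their differences ran from -0.93 for Il17ra to 1.43 for Csf3r. Of the 21, with slide as a block, Tnfrsf1a, Csf2rb2, Met and Il5ra were called higher (adjusted p = 0.0252, 0.0363, 0.0338 and 0.0407) and Il10ra, Il4ra, Il6st and Ifnar2 lower (adjusted p = 0.00745, 0.00794, 0.0476 and 0.0242). The count of cytokine receptors called higher in GMP was 8 with the authors' table or with slide as a block, 7 with normexp or with scanning run as a block and 1 without GMP array 3, GMP array 1, CMP array 1, GMP array 2 or CMP array 2. The count of cytokine receptors called lower in GMP was 10 with slide as a block and 2 with slide as a block over the 6 arrays.

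Inhibitors induced by cytokine and growth factor signals were lower in GMP in 6 of 21 members and higher in none, with a median of -0.48. Socs3, an inhibitor of JAK-STAT signalling, was at 11.22, 11.14 and 10.05 in CMP and 8.04, 7.91 and 7.35 in GMP, a log2 difference of -3.04 (SE 0.30, adjusted p = 6.72e-05). Cish, a related inhibitor, was at 10.63, 10.05 and 9.21 in CMP and 7.83, 7.14 and 7.63 in GMP. Dusp4, a phosphatase of MAP kinases, was well above background on no GMP array and at least 4.51-fold lower (adjusted p = 0.000317), and Spry1, an inhibitor of growth factor receptors, had a difference of -1.56. The count of feedback regulators called lower in GMP was 11 with scanning run as a block, 10 with slide as a block or with a random block for slide and 3 with slide as a block over the 6 arrays.

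Genes of proliferation and survival were mostly not called. Of 36 cell cycle genes, 2 were called lower in GMP and none higher, and the median was -0.013. Those called were Ccnd1 (cyclin D1), at 9.502, 9.59 and 9.41 in CMP and 7.98, 8.01 and 7.25 in GMP, and Cdkn1b (the inhibitor p27), at 9.42, 9.55 and 9.54 and 8.75, 8.71 and 8.94, which act in opposite directions on entry into the cycle. Of 24 genes of Myc and ribosome biogenesis, Mycn and Mycl were lower in GMP, Mxi1, a Myc antagonist, was higher by 0.63, and the median was -0.036. In the BCL-2 family the 3 of 16 called were all lower in GMP. Bcl2, which protects from apoptosis, was at 11.66, 11.63 and 12.33 in CMP and 10.43, 10.38 and 10.54 in GMP, Bbc3, which encodes the pro-apoptotic PUMA, at 12.04, 11.94 and 11.06 and 9.85, 9.48 and 9.38, and Bok, a pro-apoptotic relative, had a difference of -1.83. The count of cell cycle genes called lower in GMP was 4 with the authors' table or with a random block for slide or with scanning run as a block and 1 under scaling to the 75th percentile. The count of cell cycle genes called higher in GMP was 4 with slide as a block, 3 with scanning run as a block, 2 with the authors' table or with a random block for slide and 1 with normexp or without CMP array 3. The count of Myc and ribosome genes called higher in GMP was 0 with slide as a block over the 6 arrays or with only the 6 arrays in the fit or without GMP array 3, CMP array 3, GMP array 1 or GMP array 2. The count of BCL-2 family genes called higher in GMP was 3 with slide as a block or with scanning run as a block, 2 with a random block for slide and 1 with quantile normalization over the 6 arrays alone or with normexp or with only the 6 arrays in the fit.

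In heme synthesis, Alas1, the housekeeping form of the first enzyme, was at 12.08, 12.98 and 12.90 in CMP and 15.24, 15.00 and 15.22 in GMP, a log2 difference of 2.50 (SE 0.32, adjusted p = 0.000506). The mitochondrial transporter Abcb10 was also higher, with a difference of 1.14, and the other 13 of 15 members were not called. The count of heme synthesis genes called higher in GMP was 1 without GMP array 3, CMP array 3, GMP array 1 or CMP array 2 and 0 with slide as a block over the 6 arrays. The count of heme synthesis genes called lower in GMP was 2 with slide as a block and 1 with quantile normalization over the 6 arrays alone or with a random block for slide or with scanning run as a block or without LT-HSC or without CMP array 3. Of 31 chemokine receptors and adhesion molecules, Vcam1 was higher in GMP, at 7.78, 7.87 and 7.47 in CMP and 10.58, 9.73 and 10.93 in GMP, and Itgb7, an integrin chain used in homing to the gut, and Ccr9, a receptor of thymus-seeding progenitors, were lower, with differences of -1.92 and -1.49. The count of chemokine receptor and adhesion genes called higher in GMP was 2 with quantile normalization over the 6 arrays alone or with only the 6 arrays in the fit and 0 with slide as a block over the 6 arrays or without GMP array 3, CMP array 3, GMP array 1, CMP array 1 or CMP array 2. The count of chemokine receptor and adhesion genes called lower in GMP was 4 with slide as a block or with a random block for slide or with scanning run as a block.

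The largest differences outside the lists were in genes of several kinds. Towards GMP, Cyp11a1, the enzyme that starts steroid synthesis, was well above background on no CMP array and at 7.32, 7.89 and 7.69 in GMP, at least 13.4-fold higher (adjusted p = 0.00012). Degs2, of sphingolipid synthesis, was likewise at least 5.08-fold higher (adjusted p = 0.000515), and Sgms2 (sphingomyelin synthase 2) was at 4.81, 5.55 and 5.17 in CMP and 9.33, 8.84 and 9.22 in GMP. Mgam (maltase-glucoamylase) was at 6.13, 7.12 and 7.45 in CMP and 11.09, 10.58 and 11.48 in GMP, and Chst13, a sulfotransferase, at 5.79, 6.68 and 5.70 and 10.26, 10.09 and 9.95. Cdh1 (E-cadherin) and Olr1, a scavenger receptor, were each well above background on 1 of 3 CMP arrays and Sncaip, which encodes synphilin-1, on 2, and their differences of 3.99, 4.07 and 4.41 rest in part on values below that limit. Cdh1 stood at 7.60, 7.70 and 8.99 in GMP.

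Towards CMP, Zg16, a lectin-like secretory protein, was at 9.58, 9.61 and 8.41 in CMP, 10.62 ± 0.12 in MEP and 4.16, 4.55 and 4.78 in GMP, where 1 of 3 arrays was well above background. Epha2, an ephrin receptor, was at 9.66, 9.20 and 8.93 in CMP and 3.25, 3.93 and 4.26 in GMP, with 1 of 3 GMP arrays well above background. The other 7 genes of this group were well above background on no GMP array. Fbxl13, an F-box protein, was at least 9.9-fold lower in GMP, Ddx4, an RNA helicase best known from germ cells, was at least 8.52-fold lower, Rasal1, a Ras GTPase-activating protein, was at least 8.16-fold lower and Emp1, a membrane protein of epithelia, was at least 8.15-fold lower. Rtn4rl1, a relative of the Nogo receptor, Arpp21, a phosphoprotein best known from neurons, and Sparcl1, a matrix protein, were at least 7.93-fold, at least 7.81-fold and at least 7.41-fold lower. The adjusted p of these 7 was at most 0.00302. Ddx4 was at 11.62 ± 0.10 in MPP, and Emp1 at 10.92 ± 0.69.

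On the GMP side, the letters TTGCNNAA, to which C/EBP factors bind, were searched on both strands in the same 250 bases. They were found in 3 of 18 genes called higher in GMP of the lists of primary granules, of mast cells, basophils and eosinophils and of granulocyte-monocyte factors, which is 16.7%, in 11.5% of the 416 genes called higher in GMP with a listed promoter and in 8.59% of all 15583. Members of these lists that were not called were not counted separately here either. All 3 genes with a match are shown with the match in capitals, read on either strand.
Cd200r3 (chr16:44943428-44943677, plus strand): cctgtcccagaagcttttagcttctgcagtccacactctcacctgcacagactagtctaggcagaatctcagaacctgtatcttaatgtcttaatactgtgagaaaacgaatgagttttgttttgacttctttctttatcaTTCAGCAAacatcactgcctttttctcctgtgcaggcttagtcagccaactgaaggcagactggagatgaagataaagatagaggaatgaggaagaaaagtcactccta
Fcer1a (chr1:173227230-173227479, minus strand): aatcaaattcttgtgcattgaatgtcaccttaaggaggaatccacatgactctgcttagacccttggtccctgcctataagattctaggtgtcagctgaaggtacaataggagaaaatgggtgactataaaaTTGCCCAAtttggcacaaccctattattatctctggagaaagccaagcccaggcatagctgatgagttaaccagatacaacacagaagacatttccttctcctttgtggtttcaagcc
Gfi1 (chr5:107725806-107726055, minus strand): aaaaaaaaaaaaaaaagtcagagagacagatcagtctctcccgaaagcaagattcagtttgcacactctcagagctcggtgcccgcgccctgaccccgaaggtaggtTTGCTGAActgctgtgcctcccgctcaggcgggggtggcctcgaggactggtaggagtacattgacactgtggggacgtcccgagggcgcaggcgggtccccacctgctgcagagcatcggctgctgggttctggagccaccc
The matches begin 109, 118 and 143 bases before the start of Cd200r3, Fcer1a and Gfi1. The letters GAGGAAGT of PU.1 were found in 2.16% of the genes called higher in GMP, in 2.74% of those called higher in CMP and in 2.24% of all, and TGTGGT of RUNX factors in 13.2%, 12.7% and 11.9%. The motifs were searched separately, so that a base can belong to more than 1 match.

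The differences were also read within each slide, since a slide holds 1 array of each population. The list of primary granule genes had medians between 1.43 and 1.69 on the 3 slides, and that of mast cell, basophil and eosinophil genes medians of 2.53, 1.94 and 2.43 on slides 1, 2 and 3. The megakaryocyte list went from -1.39 on slide 1 to -2.19 on slide 3, while the erythroid list went from -3.46 to -1.19. Of the lists with an overall median beyond 0.5 in either direction, only the late neutrophil list changed sign between slides.

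**Figure D5:**
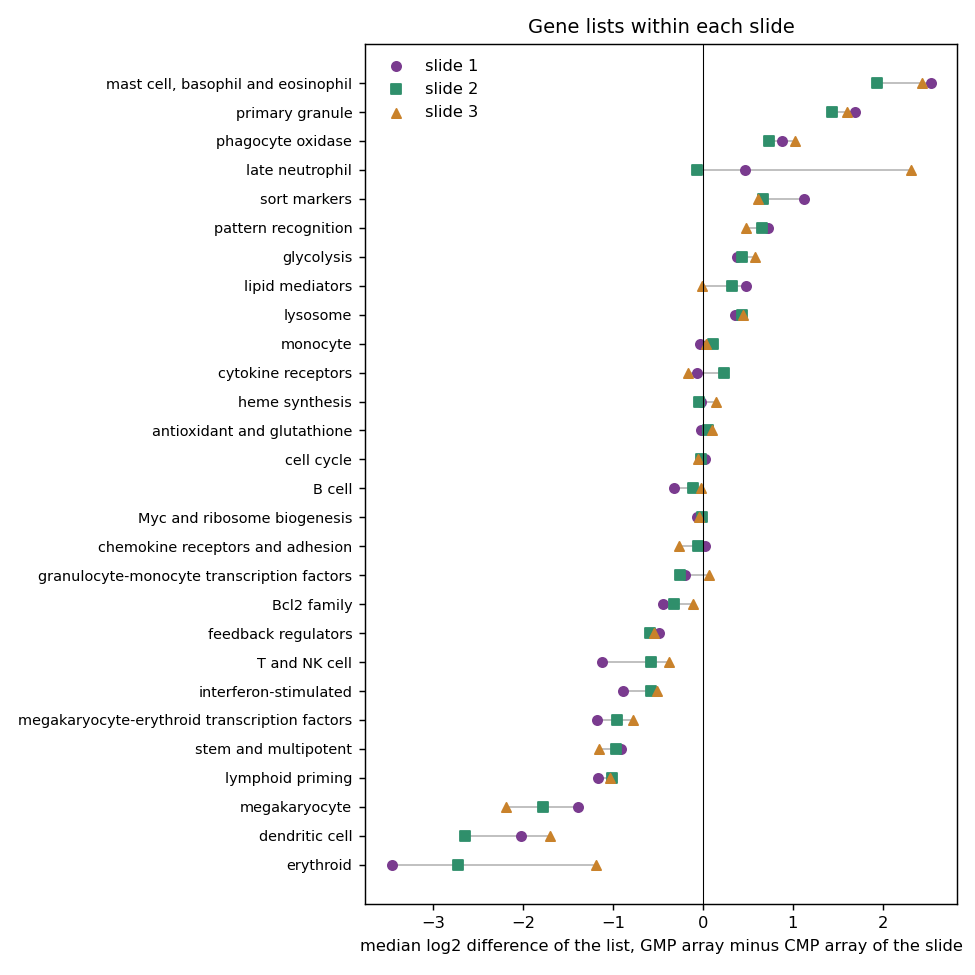
Each row is a gene list, and the 3 symbols are the median log2 difference of its members between the GMP and the CMP array of slide 1 (circle), slide 2 (square) and slide 3 (triangle). The erythroid list runs from -3.46 to -1.19 and the late neutrophil list from -0.066 to 2.31, which are the widest spreads.

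The number of genes well above background on an array, by any probe of the gene, was 14960, 15672 and 16523 in CMP and 14048, 14707 and 15867 in GMP on slides 1, 2 and 3. GMP was lower within each slide, but the populations overlapped, with means of 15718 ± 783 and 14874 ± 921 (SD, n = 3 arrays each). Taken as unpaired arrays, the difference of -844 had p = 0.3 (exact two-sided permutation test, where 3 against 3 arrays allow no p below 0.1), and it was -1341 without GMP array 3, -442 without CMP array 3 and -431 without GMP array 1. Within slides 1, 2 and 3 it was -912, -965 and -656, all in the same direction, with p = 0.25 in an exact two-sided permutation test of the paired differences, chosen after seeing the data, which is the smallest p that 3 pairs allow.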

How the data were processed

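Labelled Cy3 RNA was hybridised to Agilent whole-genome arrays with 1 colour. The deposited scanner files hold, per spot, the processed signal intensity, which the authors' scanner software had background-subtracted, and flags for outliers, saturation and signal well above background. A table of log2 values deposited by the authors was used only as an alternative. The log2 of the processed signal was quantile normalized over all 17 arrays with limma 3.58.1 in R 4.3.3, of 45018 spots the 1639 control spots and spots flagged as outliers were left out, and spots of a probe were averaged. Of the 41174 probes, 24844 were named by accession, and symbols from RefSeq were found for 32699. A gene was represented by its brightest probe. Several probes were present for 670 of the called genes, and 0 of these had probes called in opposite directions.

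Probes were fitted with lmFit and eBayes, with 1 mean for each population, and GMP was compared with CMP at an adjusted p under 0.05. A replicate was a pool of animals. The p-values measure the spread between arrays within populations, pooled over all populations. This spread includes differences between slides and scanning runs. The paper isolated CMP, GMP and MEP in the same sort. The labels do not say whether the CMP and GMP arrays of a slide share a pool, and the main fit did not pair them. For slides, the 3 same-slide pairs of arrays deviated from their population means with r = 0.167, 0.331 and 0.512, all above 0.1, and slides were taken to pair the arrays. Of the pairs from different slides, CMP array 1 with GMP array 2 had r = 0.169, CMP array 2 with GMP array 1 had r = 0.129, and the other 4 ran from -0.395 to -0.221, so slides 1 and 2, of the same scanning run, are not set apart from each other by this check. The fit with slide as a block covered all populations but LT-HSC, and 25 probe values of these 6 arrays were missing and were left out of the means. Precision is limited by the number of arrays. The gene lists, the marker lists and the motifs were chosen with earlier results of these data known. Genes named are the 12 called genes each way with the largest differences, without overlap and well above background on every array of the higher population, the 4 called genes each way with the largest differences in each list, members of both lists of factors and of the list of receptors whether called or not, the sort genes, the cell type markers and the genes whose promoters are shown. Ly6g, Cebpe, Zbtb16, Hbb-b1, Hbb-b2, Tubb1, Ear2, Tlr13 and Dusp5 were not matched to a probe and were not analysed here, and a few other genes of the lists are not reported here by name. Alternatives were other normalizations, background correction, probe choice, blocks, samples in the fit and leaving out each array.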

Additional observations from a re-analysis of the deposited data

How the results depend on the processing

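With slide as a block (the pairing of the arrays), 4338 probes were called, 1947 higher in GMP and 2391 higher in CMP, and 3220 genes, 1379 and 1841. With slide as a random block the counts were 3034 probes and 2343 genes (1249 and 938 higher in GMP), and with scanning run as a block 3437 probes (1478 higher in GMP and 1959 higher in CMP) and 2623 genes (1083 and 1540). With arrays scaled to their 75th percentile, the median difference was -1.19 for stem and multipotent genes, -1.24 for lymphoid priming genes, 0.14 for cell cycle genes, 0.077 for Myc and ribosome biogenesis genes, 0.44 for lysosome genes and 0.075 for antioxidant and glutathione genes. This scaling moved the median over all genes from 0.038 to 0.152, and the medians of Myc and ribosome biogenesis (-0.036 as given), cell cycle (-0.013), antioxidant (-0.004) and chemokine receptor and adhesion genes (-0.11, then 0.008) changed sign with it. With normexp background correction, the median difference was -0.96 for megakaryocyte genes, -0.69 for stem and multipotent genes, 1.27 for mast cell, basophil and eosinophil genes, -0.42 for lymphoid priming genes, -0.099 for T and NK cell genes, -1.002 for dendritic cell genes, 0.36 for pattern recognition genes, -0.46 for interferon-stimulated genes, 0.43 for late neutrophil genes, -1.35 for erythroid genes and 0.19 for lipid mediators genes. With the authors' table, the median difference was -1.27 for megakaryocyte genes, 1.74 for mast cell, basophil and eosinophil genes, -0.58 for lymphoid priming genes, 0.40 for pattern recognition genes, 0.55 for late neutrophil genes and -0.21 for T and NK cell genes. With dim probes left out, the median difference was -1.45 for lymphoid priming genes and -0.96 for T and NK cell genes. With the mean of all probes of a gene, the median difference was -1.001 for lymphoid priming genes, 0.034 for cell cycle genes and -0.002 for Myc and ribosome biogenesis genes. When 1 CMP or GMP array was left out at a time, probes called ran from 1120 to 1634, probes called higher in GMP ran from 349 to 637, probes called higher in CMP ran from 771 to 997, genes called ran from 914 to 1282 and genes called higher in GMP ran from 271 to 496. The medians then ran from 1.29 to 1.65 for primary granule genes, -0.16 to 0.18 for monocyte genes, -1.11 to -0.93 for stem and multipotent genes, -0.27 to 0.11 for cytokine receptors, -1.42 to -1.20 for lymphoid priming genes, -0.24 to 0.002 for B cell genes, -0.012 to 0.050 for cell cycle genes, -0.051 to -0.000 for Myc and ribosome biogenesis genes, -0.13 to 0.12 for heme synthesis genes, 0.46 to 0.77 for pattern recognition genes, 0.28 to 0.49 for lysosome genes, 0.36 to 0.59 for glycolysis genes, -0.074 to 0.016 for antioxidant and glutathione genes, -0.54 to -0.36 for feedback regulators, 0.44 to 0.91 for late neutrophil genes and -0.87 to -0.30 for T and NK cell genes. Of the 178 named genes, 134 were called, and none of these 134 turned its direction under any alternative, while some that were not called, such as Csf1r, did. With 1 array left out, between 17 and 33 of the 134 lost their call, with the 6 arrays alone 25, with slide as a block over the 6 arrays 33, and with slide as a block over all populations but LT-HSC 0. Low signals, where the processed intensity is near the background, have the least certain differences.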
